A study of Mus musculus with 3 samples.

Results

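Anti-Müllerian hormone (Amh), its type II receptor (Amhr2) and KIT ligand (Kitl) were followed in granulosa cells across the hours before ovulation. The members were the 3 listed genes out of 24170 genes in the table, and all 3 were found, each with 1 RefSeq isoform. The cells came from wild-type C57BL/6 females of postnatal days 21 to 28 whose follicles had grown under 4 IU of equine chorionic gonadotropin (eCG), which all groups received. The 0 h library was taken before human chorionic gonadotropin (hCG), the ovulatory signal, and the other libraries 4 h and 12 h after 5 IU of it. Cells were released by puncturing follicles, which can also free oocytes and cells of the follicle wall. Each time has 1 library, made with RNA of 3 mice (the sources used here do not say whether pooled), so no test was possible and every difference below is between 2 libraries. Juvenile gonadotropin-primed ovaries grow many follicles at once, and mural and cumulus granulosa cells were not separated in the labels.

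AMH is a secreted member of the TGF-beta superfamily made by granulosa cells of growing follicles. It binds AMHR2, which pairs with the type I receptors ACVR1, BMPR1A or BMPR1B and signals through the SMAD proteins that also serve bone morphogenetic proteins. It is known to hold back the recruitment of small follicles and their response to FSH, and in antral follicles it is strongest in the cumulus cells next to the oocyte. KIT ligand is made by granulosa cells as a membrane protein that proteases can release, and it acts on the receptor KIT of oocytes and theca cells, where it supports oocyte growth.

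In the RefSeq gene table of GRCm38.p6, Amh lies on chromosome 10 at 80805240 to 80807679, Amhr2 on chromosome 15 at 102445002 to 102454640 and Kitl on chromosome 10 at 100015615 to 100100416. The GENCODE transcript linked to the measured isoform has 5 exons and 1670 nt for Amh, 11 exons and 1938 nt for Amhr2, and 10 exons and 5648 nt for Kitl. KIT ligand is known in a form that is readily shed and a form that mostly stays on the membrane, and they differ by 1 coding exon. The measured Kitl transcript holds that exon, exon 6, of 84 nt at chr10:100080857-100080940 on the plus strand of GRCm38, and a second annotated Kitl transcript of 9 exons skips it. The exon is shown because the single Kitl value is assigned to the transcript that holds it. The capitals mark the codons around the main site where the soluble ligand is cut free.
Kitl exon 6: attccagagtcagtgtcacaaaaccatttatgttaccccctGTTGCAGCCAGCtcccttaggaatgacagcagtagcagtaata
With 1 isoform in the table, the share of the form without the exon was not analysed here.

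The RefSeq promoter table holds windows for Amhr2 and Kitl, and Amh is not in it. The Amhr2 stretch below, chr15:102445117-102445366 on the plus strand of GRCm38.p6, is the 250 bases that end 1 base before the start of the measured transcript, shown because factors that bind such motifs were themselves measured. The RefSeq gene record begins 365 bases before that start, so the stretch lies within the gene's RefSeq span. No GENCODE exon of Amhr2 overlaps it. Capitals mark, in order, the NR5A1 motif AGGTCA, the GATA motif TGATAA on the opposite strand (letters TTATCA) and the SP1 motif GGGCGG.
Amhr2 promoter: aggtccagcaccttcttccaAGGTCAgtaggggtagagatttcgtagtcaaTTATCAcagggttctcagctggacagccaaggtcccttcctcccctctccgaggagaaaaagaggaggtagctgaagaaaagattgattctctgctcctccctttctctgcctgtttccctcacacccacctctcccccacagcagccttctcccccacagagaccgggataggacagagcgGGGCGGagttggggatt
On either strand, AGGTCA was present in 16.3% of 32851 promoter windows of 300 bases, TGATAA in 9.05% and GGGCGG in 35.7%. The Kitl window held GGGCGG in 3 places, a pair of which overlap, and the TATA motif TATAAA, 25 bases before the table's start, which 13.6% of windows held. That start lies 191 bases inside the first exon of the measured Kitl transcript, and all of these Kitl matches fall within that exon. Neither window held the other motifs searched on both strands. Of these, the GATA motif TGATAG was present in 7.29% of windows, its variant AGATAA in 11.2% and its variant AGATAG in 8.95%. The SOX motif AACAAT was present in 10.7% and its longer form AACAAAG in 5.85%. The CRE motif TGACGTCA was present in 1.79%, its shorter form TGACG, which overlaps it, in 20.8%, and the forkhead motif TAAACA in 13.4%. A match is a run of letters and not a measured binding site.

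Levels are in FPKM, fragments counted per kilobase of transcript and per unit of sequencing depth, so levels of different genes can be compared. The ranges beside them are the bounds deposited with each value, which describe the estimate within 1 library and not the spread between mice. Low values are best spaced as whole fragments, among the depths tried, at about 13200000, 12000000 and 11500000 fragments at 0, 4 and 12 h, which placed 74.5%, 74.8% and 76.3% of low values within 0.1 of a whole number where chance gives 20%. The summed FPKM were 501256, 621173 and 472655, so the 4 h library had the largest sum. Folds are differences of log2(FPKM + 1), later minus earlier, and the added 1 understates the change of low genes. Genes reaching 1 FPKM in either library compared were tested, and those that differed 2-fold were called higher or lower. All 12 granulosa markers, among them Inha, Fshr and Foxl2, were at 15.0 FPKM or more in every library.

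Amh, the hormone, was at 252 FPKM (242 to 263) at 0 h, 351 (338 to 364) at 4 h and 406 (392 to 420) at 12 h. The level was lowest before hCG and highest at 12 h, and none of the bounds overlapped. Those values correspond to about 4899, 6110 and 6859 fragments, 1 fragment being worth 0.0515, 0.0575 and 0.0592 FPKM. Among 24170 genes Amh ranked 233rd, 212th and 127th by level, so it was among the abundant transcripts in each library.

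Amhr2, the receptor that only AMH is known to use, was at 108 FPKM (102 to 115) at 0 h, 83.8 (78.0 to 89.5) at 4 h and 115 (109 to 122) at 12 h. The 4 h library was the lowest, and the bounds of the other libraries overlapped. The estimated fragments were 2489, 1727 and 2304, and Amhr2 ranked 684th, 1126th and 631st.

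Kitl was the least abundant of the 3, at 25.7 FPKM (23.9 to 27.5) at 0 h, 30.3 (28.3 to 32.3) at 4 h and 22.9 (21.2 to 24.7) at 12 h. Its highest level was at 4 h, and the bounds at 0 h and 12 h overlapped. The estimated fragments were 1849, 1976 and 1437, and its ranks were 3705th, 3402nd and 4065th. In every library the order of levels was Amh, Amhr2, Kitl, with bounds apart.

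**Figure D1:**
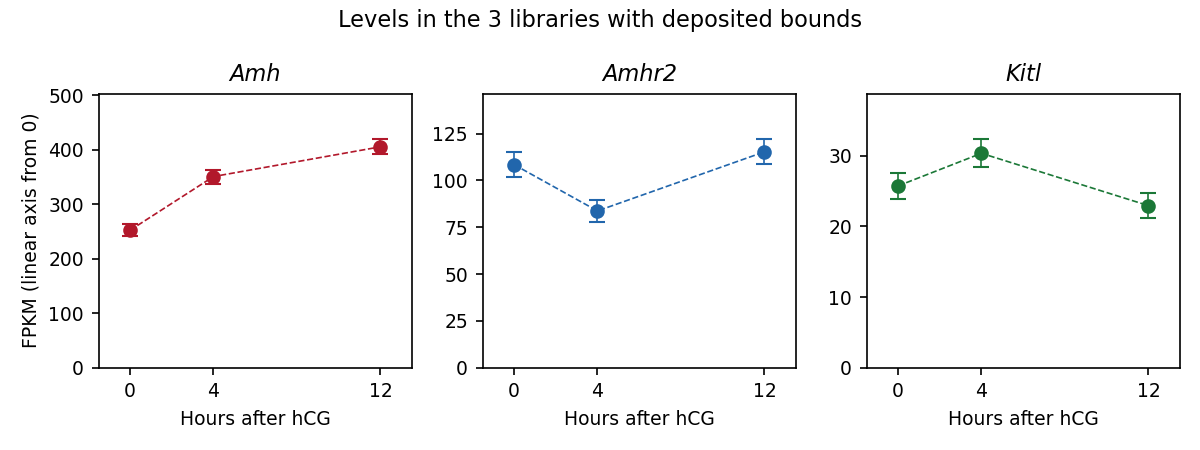
FPKM of Amh, Amhr2 and Kitl (y axis, linear from 0, a scale for each gene) against hours after hCG (x axis); points are the single library of each time and bars the deposited bounds. Amh goes from 252 to 351 to 406 FPKM, Amhr2 is lowest at 4 h (83.8) and Kitl is highest at 4 h (30.3).

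From 0 h to 4 h the log2 fold was 0.47 for Amh, -0.37 for Amhr2 and 0.23 for Kitl. The hormone and KIT ligand were thus higher and the receptor lower on the deposited scale. None of the 3 passed 2-fold, which 17.3% of 13237 genes did. Deposited bounds lay apart for all 3, as they did for 39.7% of genes (22.2% higher and 17.6% lower). The Amh fold was above those of 76.9% of genes, the Kitl fold above 65.1% and the Amhr2 fold above 28.5%, so all 3 lay in the broad middle of the distribution. With the combined bounds, the folds ran from 0.36 to 0.59 for Amh, from -0.55 to -0.19 for Amhr2 and from 0.04 to 0.42 for Kitl.

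From 0 h to 12 h Amh had a log2 fold of 0.68 (0.57 to 0.79), a level 1.61 times that at 0 h. That fold was above those of 93.0% of 13023 genes and 12.0% of genes had a larger absolute fold. Amhr2 was at 0.09 (-0.08 to 0.26) and Kitl at -0.16 (-0.36 to 0.04), and for both the bounds included no difference. None of the 3 passed 2-fold, against 5.71% of genes, and bounds lay apart for 1 of 3, against 17.0% (8.37% higher and 8.68% lower).

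From 4 h to 12 h the log2 fold was 0.21 (0.11 to 0.31) for Amh, 0.46 (0.28 to 0.64) for Amhr2 and -0.39 (-0.59 to -0.19) for Kitl. On the deposited scale Amhr2 and Kitl thus moved back toward their levels before hCG, while Amh stayed above its own. Kitl did not on libraries brought to the mean of the FPKM sums, at 27.3, 26.0 and 25.8 in order of time. There Amhr2 was at 115, 71.7 and 130, above its 0 h level at 12 h. On the deposited scale none of the members passed 2-fold, against 12.7% of 13238 genes. Bounds lay apart for all 3, against 35.0% (14.3% higher and 20.6% lower). These comparisons share libraries, so they are not independent of each other.

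**Figure D2:**
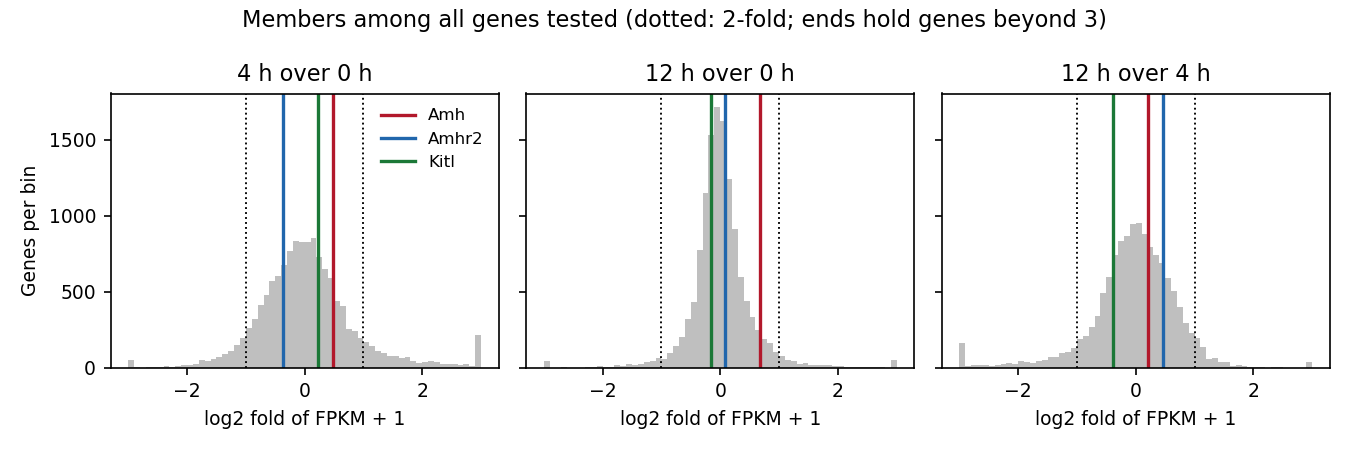
Histogram of log2 folds of FPKM + 1 (x axis) over all genes tested (y axis, genes per bin) in the 3 comparisons, with Amh, Amhr2 and Kitl as coloured lines and the 2-fold limits dotted; the end bins hold genes beyond 3. No member reaches a dotted line, and Amh at 12 h over 0 h, at 0.68, stands farthest from the centre.

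The size of the small 4 h differences depended on how the libraries were scaled. Median-of-ratios scaling, which evens the typical gene ratio between libraries, left the 4 h over 0 h folds nearly unchanged. They were 0.46 for Amh, -0.38 for Amhr2 and 0.22 for Kitl. Amh and Amhr2 kept their signs under each scaling used. With each library brought to the mean of the FPKM sums, the median of all genes was -0.29 for 4 h over 0 h and 0.37 for 12 h over 4 h, against -0.01 and 0.01 on the deposited scale. On that scale Kitl was at -0.07 for 4 h over 0 h, with its sign turned, Amh at 0.17 and Amhr2 at -0.68. Subtracting the median of all genes removes nearly all of a library's scaling by construction. Values relative to that median could therefore hardly differ between scales. For 4 h over 0 h, Amh was 0.48 above the median on the deposited scale and 0.46 above it on the rescaled libraries. Kitl was 0.24 and 0.22 above it, and Amhr2 stood at -0.36 and -0.38. For 12 h over 0 h Amh was 0.70 above the median on both scales. Of genes past 2-fold at 4 h over 0 h, 59.3% were higher on the deposited scale, 36.7% on libraries with the same sum and 42.5% on libraries with the same protein-coding sum. For 12 h over 4 h these shares were 38.0%, 70.7% and 62.0%.

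**Figure D3:**
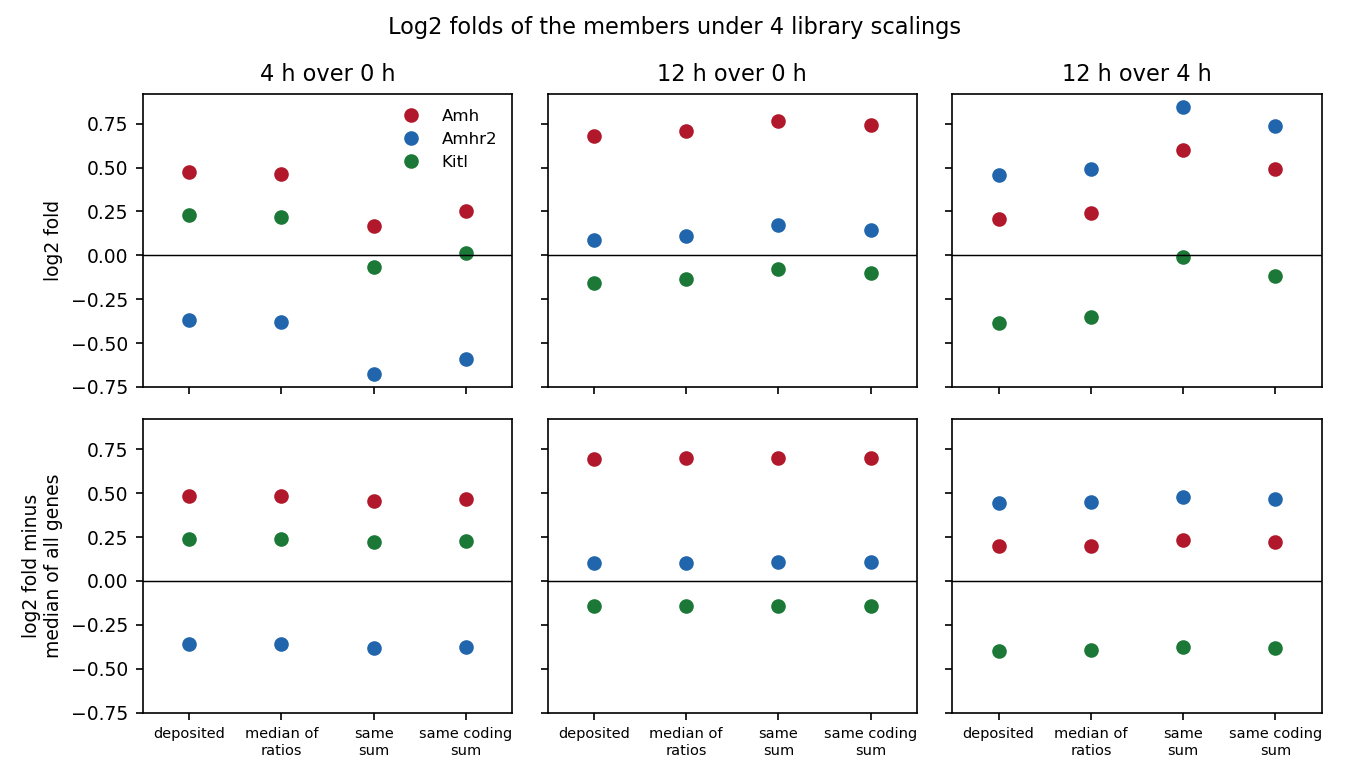
Log2 folds of the 3 genes (y axis) under the deposited scale, median-of-ratios scaling, the same library sum and the same protein-coding sum (x axis), as computed (upper row) and after subtraction of the median of all genes (lower row). In the lower row the points hardly move between scalings, because subtracting the median removes nearly all of the scaling by construction. In the upper row Kitl at 4 h over 0 h goes from 0.23 to -0.07.

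Ratios within a library do not depend on its scaling. The ratio of Amh to Amhr2 was 2.33 (2.1 to 2.58) at 0 h, 4.19 (3.78 to 4.67) at 4 h and 3.52 (3.21 to 3.87) at 12 h, from opposite bounds of the levels. Ligand transcript was thus higher relative to receptor transcript after hCG than before it, and the bounds at 4 h and 12 h overlapped. The ratio of Amh to Kitl was 9.82 (8.77 to 11.0), 11.6 (10.5 to 12.8) and 17.7 (15.9 to 19.8), so these granulosa factors for the follicle and the oocyte differed most in level at 12 h. The ratio of Amhr2 to Kitl was lowest at 4 h, at 2.76 (2.41 to 3.16), against 4.22 (3.70 to 4.82) at 0 h and 5.03 (4.40 to 5.75) at 12 h.

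**Figure D4:**
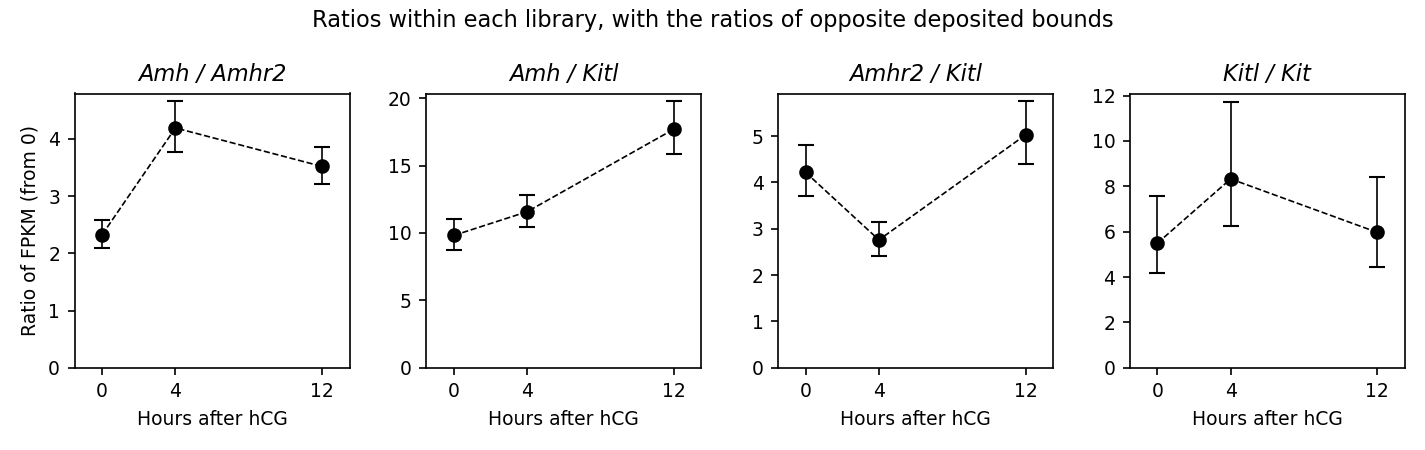
Ratios of FPKM within each library (y axis, linear from 0) against hours after hCG (x axis); points are single libraries and bars run between the ratios of opposite deposited bounds. Amh over Amhr2 is lowest at 0 h (2.33), Amhr2 over Kitl is lowest at 4 h (2.76), and the bars of Kitl over Kit overlap at all 3 times.

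Inhbb, the inhibin beta B subunit, was at 1354, 27.0 and 542 FPKM, Inhba, the beta A subunit, at 699, 784 and 208, and Inha, the alpha subunit, at 6986, 7163 and 3742. The ratio of Amh to Inhbb was 0.186 at 0 h, 13.0 at 4 h and 0.749 at 12 h, a range set mostly by the levels of Inhbb. The ratio to Inhba was 0.361, 0.448 and 1.95, and that to Inha 0.0361, 0.0490 and 0.108. Amh therefore stood below Inhbb before hCG, above it at 4 h and below it again at 12 h, while it exceeded Inhba at 12 h and was below Inha in all libraries. These partners were picked after their values were seen.

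The list of type I receptors, SMADs and ID targets holds what lies downstream of AMHR2, although bone morphogenetic proteins use it too. At 4 h over 0 h, 4 of 13 genes were higher, where 10.2% of all genes were, and 2 were lower, where 7.03% were (median 0.79, all genes -0.01). On libraries with the same sum 2 were higher and 2 lower (median 0.60), where 7.59% of all genes were higher and 13.1% lower. The receptor Acvr1 was at 14.5 FPKM (11.3 to 17.7) at 0 h, 40.2 at 4 h and 20.9 at 12 h. The receptor Bmpr1b went the other way, at 92.4 (63.8 to 125), 33.8 (28.2 to 39.4) and 60.2. Bmpr1b was thus the more abundant of the pair at 0 h and 12 h, while their bounds overlapped at 4 h (35.8 to 44.8 for Acvr1). The other type I receptor, Bmpr1a, did not pass 2-fold, at 29.1 (27.2 to 31.0), 43.5 (41.1 to 45.9) and 29.3 FPKM (27.3 to 31.2). It lay between that pair at 0 h and 12 h. At 4 h its bounds were above those of Bmpr1b and overlapped those of Acvr1. The inhibitory SMADs Smad6 and Smad7 were at 2.90, 8.17 and 10.2 FPKM and at 6.02, 15.0 and 10.7. Among the signal carriers, Smad1 was at 10.2 (8.08 to 12.4), 20.4 (17.3 to 23.4) and 9.82 FPKM and Smad9 at 0.912, 2.31 and 2.34. Smad5 was at 21.6, 22.5 and 21.4 FPKM and the shared partner Smad4 at 44.0, 41.3 and 43.8. None of these 4 passed 2-fold, and Smad1 was highest at 4 h.

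The ID genes, targets of this SMAD branch, did not share a direction. Id1 was lower at both later times, at 88.6 FPKM (77.6 to 99.7), 41.4 (32.7 to 50.1) and 35.4 (27.7 to 43.2). Id2 was higher, at 36.3 (29.1 to 43.4), 116 (107 to 124) and 120 (111 to 129). Id3, the most abundant, was at 367, 246 and 258 FPKM. At 12 h over 0 h, 2 of the 13 genes were higher (all genes 3.16%) and 1 was lower (2.55%), with a median of 0.01, and from 4 h to 12 h none passed 2-fold in either direction (all genes 4.83% higher and 7.88% lower, list median -0.07, or 1 higher with a median of 0.29 on libraries with the same sum). Bmpr1a, Smad1, Smad4, Smad5, Smad7, Smad9, Id1 and Id3 were named after their values were seen.

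Among type II receptors of the superfamily, Amhr2 stood next to Bmpr2, the BMP receptor, which was at 109 FPKM (107 to 112), 75.7 (73.5 to 77.9) and 61.8 (59.9 to 63.8). The ratio of Amhr2 to Bmpr2 was 0.993 (0.911 to 1.08) at 0 h, 1.11 (1.0 to 1.22) at 4 h and 1.86 (1.70 to 2.04) at 12 h, so Amhr2 was the more abundant at 12 h and, with bounds that nearly touched, at 4 h. The activin receptors Acvr2a (4.94, 9.07 and 6.18 FPKM) and Acvr2b (2.1, 2.90 and 2.87) and the TGF-beta receptor Tgfbr2 (3.80, 11.2 and 6.10) were far below both. Of these 4 genes beside Amhr2, only Tgfbr2 at 4 h over 0 h passed 2-fold (medians 0.55, 0.30 and -0.39 in the 3 comparisons). Over all genes, 17.3% passed 2-fold at 4 h over 0 h, 5.71% at 12 h over 0 h and 12.7% from 4 h to 12 h.

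AMH is made as a precursor that proprotein convertases cut. Of 4 convertases, 3 were higher at 4 h than at 0 h on the deposited scale (median 1.64, 10.2% of all genes higher) and on libraries with the same sum (median 1.34, 7.59% of all genes higher). Pcsk5 was at 11.7 FPKM (10.3 to 13.2) at 0 h, 171 (165 to 177) at 4 h and 44.3 (41.8 to 46.9) at 12 h. Pcsk6 was at 5.63, 23.0 and 10.3, Furin at 22.6, 62.0 and 30.6, and Pcsk7, which did not pass 2-fold, at 7.82, 12.7 and 9.76. All 4 were highest at 4 h, while Amh was highest at 12 h. At 12 h over 0 h Pcsk5 alone passed 2-fold (median 0.60) and was higher, as 3.16% of all genes were. From 4 h to 12 h Pcsk5 and Pcsk6 were lower (median -1.04), where 7.88% of all genes were. On libraries with the same sum only Pcsk5 was lower from 4 h to 12 h, where 5.23% of all genes were.

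Known regulators of Amh mostly had lower values at 4 h, while Amh itself was higher. Of 12 of them at or above 1 FPKM, 11 had negative folds, 3 were called lower and 1 higher (median -0.81), where 7.03% of all genes were lower and 10.2% higher. On libraries with the same sum 7 were lower and none was higher (median -1.08), where 13.1% of all genes were lower and the median of all genes was -0.29. The FSH receptor Fshr was at 133 FPKM (127 to 140) at 0 h, 15.5 (12.3 to 18.6) at 4 h and 32.1 at 12 h. The transcription factor Foxl2 was at 149 (142 to 156), 44.3 (40.7 to 47.9) and 102, and the transcription factor Gata4 at 102, 38.7 and 83.9. Wt1, a transcription factor of granulosa and Sertoli cells, was the 1 called higher, at 13.2 (10.6 to 15.8), 27.4 (24.8 to 29.9) and 31.5 (28.8 to 34.2) FPKM and its fold at 4 h lay at the threshold. Nr5a1, whose motif stands in the Amhr2 window, was at 107, 64.0 and 68.7 FPKM. The SOX factors that switch on Amh in Sertoli cells were near 0, Sox9 at 0.210, 0.849 and 0.458 FPKM and Sox8 at 1.24, 0.451 and 0.830; these and Nr5a1 were named after their values were seen. At 12 h over 0 h 1 regulator was higher, Wt1, and 1 lower, Fshr (median -0.32), where 3.16% of all genes were higher and 2.55% lower. From 4 h to 12 h 3 of 11 were higher (median 0.50, 4.83% of all genes higher), or 5 on libraries with the same sum (12.6% of all genes higher).

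The receptor Kit, which is known in oocytes and theca rather than in granulosa cells, was at 4.68 FPKM (3.63 to 5.74), 3.64 (2.76 to 4.53) and 3.84 (2.92 to 4.76), with overlapping bounds. The ratio of Kitl to Kit was 5.49 (4.16 to 7.59), 8.33 (6.26 to 11.7) and 5.97 (4.45 to 8.43), also overlapping. Mast cells carry KIT as well, and their 5 markers summed to 0.691, 0.860 and 0.600 FPKM, with Cpa3 listed at 0 in all libraries. Among proteases that can release KIT ligand, Adam17 was at 43.5, 43.0 and 43.1 FPKM, Adam19 at 1.36, 1.45 and 1.13 and Adam33 at 1.34, 1.56 and 1.22. Mmp9 had only 0.0505, 0.256 and 0.0579 FPKM. Over all genes, 17.3% passed 2-fold at 4 h over 0 h. The share was 5.71% for 12 h over 0 h and 12.7% for 12 h over 4 h. In lists as short as the next ones, none past 2-fold therefore says little about stability. The 4 listed genes that reached 1 FPKM all stayed under 2-fold in each comparison (medians 0.02, -0.11 and -0.10; -0.22, -0.07 and 0.20 on libraries with the same sum). The structurally related cytokines Csf1 (4.16, 4.76 and 2.92 FPKM), Il34 (1.95, 3.2 and 3.25) and Flt3l (1.14, 0.848 and 1.09) were below Kitl in every library and none passed 2-fold (medians 0.16, -0.03 and 0.01; -0.09, 0.01 and 0.31 on libraries with the same sum).

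**Figure D5:**
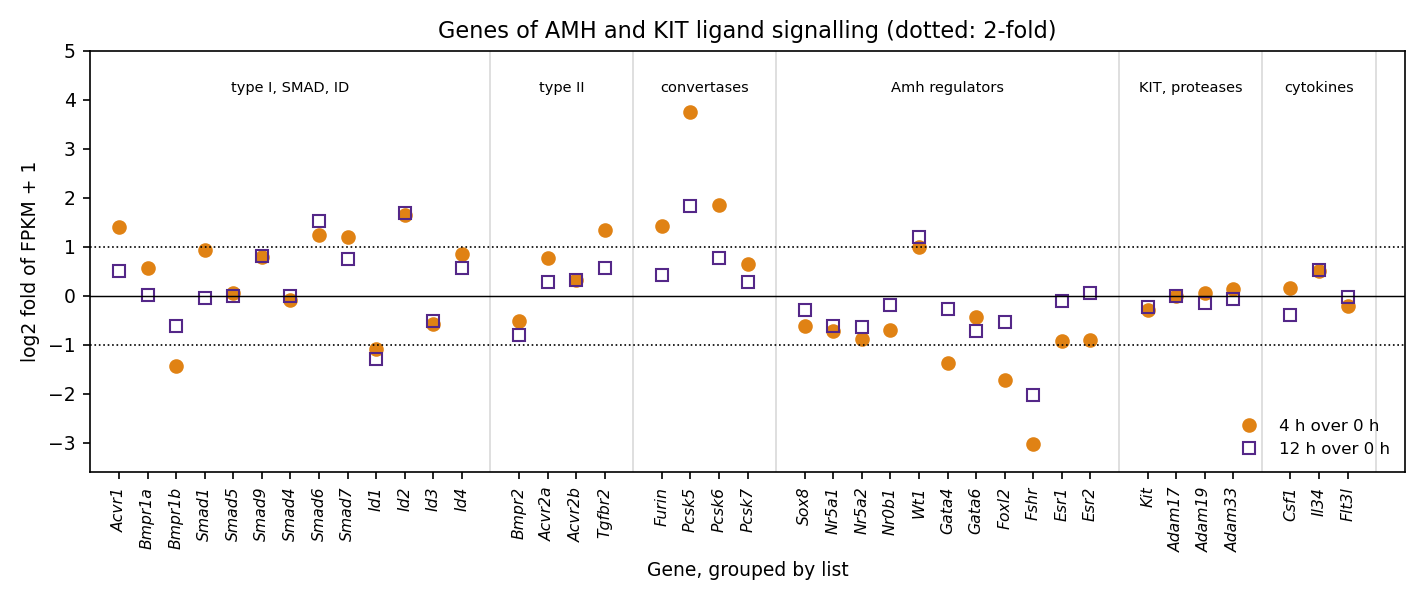
Log2 folds of FPKM + 1 (y axis) for genes of AMH and KIT ligand signalling with at least 1 FPKM in 1 library (x axis, grouped by list, 1 gene not shown); filled circles are 4 h over 0 h, open squares 12 h over 0 h, and dotted lines mark 2-fold. Pcsk5 stands highest, at 171 FPKM in the 4 h library against 11.7, Fshr lowest, and the KIT list lies near 0.

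Markers of the cell types that a follicle preparation can hold were read beside the members. Over all genes, the shares called higher and lower were 10.2% and 7.03% at 4 h over 0 h, 3.16% and 2.55% at 12 h over 0 h, and 4.83% and 7.88% from 4 h to 12 h. On libraries with the same sum they were 7.59% and 13.1%, 3.85% and 2.28%, and 12.6% and 5.23%, in the same order. Fewer cells of a type and less RNA per cell cannot be told apart in such bulk libraries. The 10 oocyte markers summed to 162 FPKM at 0 h, 125 at 4 h and 222 at 12 h, and 9 of 10 had positive folds at 12 h over 0 h (median 0.47), 1 being called higher and none being at 0. From 4 h to 12 h all 10 were positive (median 0.78), and 1 passed 2-fold, or 7 on libraries with the same sum. At 4 h over 0 h 8 of 9 were negative (median -0.28). The oocyte growth factor Gdf9 was at 53.6, 48.2 and 83.8 FPKM and Bmp15 at 22.4, 14.9 and 28.6; neither passed 2-fold (medians -0.36, 0.49 and 0.84), and both were higher for 12 h over 4 h on libraries with the same sum. The ratio of Amh to Gdf9 was 4.71 (4.14 to 5.40) at 0 h, 7.29 (6.42 to 8.34) at 4 h and 4.84 (4.37 to 5.39) at 12 h, so at 0 h and 12 h it overlapped.

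Among the cumulus markers, the glutamine transporter Slc38a3 was at 90.4, 98.2 and 171 FPKM, the natriuretic peptide receptor Npr2 at 139, 84.0 and 112, and the aldolase Aldoc at 6.33, 2.40 and 4.86. Slc38a3, like Amh, was highest at 12 h, while Npr2 and Aldoc were highest at 0 h. Of these 3, Aldoc was lower at 4 h over 0 h, and none passed 2-fold at 12 h over 0 h. On libraries with the same sum Npr2 and Aldoc were lower at 4 h over 0 h, and Slc38a3 and Aldoc were higher from 4 h to 12 h. The ratio of Amh to Slc38a3 was 2.79 (2.52 to 3.11), 3.58 (3.17 to 4.02) and 2.37 (2.19 to 2.57). The mural markers Lhcgr, the LH receptor (90.1, 113 and 69.4 FPKM), Cyp11a1, the side-chain cleavage enzyme (557, 1713 and 930), and Cd34 (35.8, 64.4 and 27.9) were each highest at 4 h, with 1 of 3 higher at 4 h over 0 h and 1 lower from 4 h to 12 h (medians 0.83, -0.35 and -0.88). The part of a changed share of cumulus cells or oocytes in the Amh values was not tested.

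The other marker lists bear on Amhr2 and Kitl, which stromal and epithelial cells can also express. Theca and stroma markers summed to 310, 336 and 316 FPKM (medians 0.07, 0.14 and 0.19, 1 of 10 lower at 12 h over 0 h; -0.24, 0.22 and 0.57 on libraries with the same sum). Surface epithelium markers summed to 54.8, 134 and 78.5, with 4 of 7 higher at 4 h over 0 h (2 on libraries with the same sum), 1 higher at 12 h over 0 h and 1 lower from 4 h to 12 h (medians 1.15, 0.35 and -0.78). Endothelial markers summed to 17.3, 41.3 and 15.7, with 2 of 7 higher at 4 h and 4 lower from 4 h to 12 h (medians 0.86, -0.09 and -1.12). Smooth muscle markers summed to 114, 173 and 169 (1 of 5 higher at 4 h; medians 0.49, 0.33 and 0.09), and leukocyte markers to 56.8, 90.5 and 93.7 (2 of 6 higher at 4 h, 1 at 12 h over 0 h; medians 0.59, 0.58 and -0.29). None of these markers was at 0 in any comparison, and their part in the Amhr2 and Kitl values was not tested. On libraries with the same sum 1 endothelial, 2 leukocyte and no smooth muscle marker were higher at 4 h over 0 h, and 1 theca and stroma marker was lower. On that scale, from 4 h to 12 h 1 theca and stroma marker was higher, and 2 endothelial and no surface epithelium markers were lower. Granulosa markers were lower at 4 h over 0 h in 7 of 12 cases and at 12 h over 0 h in 6, and from 4 h to 12 h 6 were higher and 1 lower (medians -1.43, -1.10 and 0.98). On libraries with the same sum these counts were 10, 6, 7 and 1. Folds over 0 h were negative for 10 of 12 at 4 h and 11 of 12 at 12 h on the deposited scale, where those of Amh were positive.

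Neither gene beside Amh was above its 0 h level at both later times, as Amh was. Sf3a2, a splicing factor gene that ends 317 bases before Amh, was at 65.4, 54.0 and 57.7 FPKM, and Jsrp1, which lies 814 bases after it, at 10.02, 7.35 and 13.7. Jsrp1 was, like Amh, highest at 12 h, but it was lowest at 4 h. The ratio of Amh to Sf3a2 was 3.86 (3.41 to 4.40), 6.50 (5.73 to 7.42) and 7.03 (6.23 to 7.99). Beside Amhr2 lie Sp1, a transcription factor gene 8597 bases before it (14.5, 16.2 and 15.5 FPKM), and Prr13, 4529 bases after it (38.7, 56.6 and 43.6), and Prr13 was highest at 4 h, where Amhr2 was lowest. The nearest protein-coding gene before Kitl, Csl, lies 255956 bases away (9.12, 6.97 and 7.32 FPKM), and the nearest after it, Gm4301, was not analysed here.

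By distance between pairs of log2 folds (4 h over 0 h and 12 h over 0 h) among 8091 other protein-coding genes with at least 10 FPKM in 1 library, the genes nearest to Amh were Dst, Sfxn1, Olfml2b, Dtnb and 2200002D01Rik, at distances of 0.02 to 0.05. Nearest to Amhr2 were Casp8, Manba, Btbd6, Ocrl and Pigu (0.01 to 0.02), and nearest to Kitl were Zfyve1, Surf6, Tox4, Stt3b and Stx5a (0.0042 to 0.01). Within a distance of 0.1 there were 13 genes for Amh, 143 for Amhr2 and 237 for Kitl. Fewer genes thus lay near Amh than near the other members. Its 12 h over 0 h fold was above those of 93.0% of genes, where genes are sparser. The count therefore partly restates the size of its folds. Dst, closest to Amh, was at 12.4, 17.8 and 20.8 FPKM, and likeness rests on 3 libraries only.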

How the data were processed

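Messenger RNA of granulosa cells was sequenced in 3 libraries, 1 for each of 0, 4 and 12 h. The deposited values are FPKM of RefSeq isoforms with an upper and a lower bound, per the file headers; the level of the bounds is not stated, and 12 estimates were marked as failed. Per the submitters' processing notes, the authors used CASAVA 1.8, TopHat2 2.1.1, Cufflinks 2.2.1 and mm10; their roles are not given there. Strand and read length are not given in the sources used here, so overlapping genes on opposite strands are uncertain.

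Of 34535 isoforms, 33548 were matched to symbols by RefSeq accession (GRCm38.p6), 190 through GENCODE M21 and 797 were left out. FPKM were summed per gene, bounds being combined as the root of summed squared half-widths. Depth was read from whole-fragment steps of low values. Calls need 2-fold on log2(FPKM + 1) and 1 FPKM. With 1 library per time there is no test, and intervals cover the estimate only. Python 3.11.15, numpy 2.4.6 and pandas 2.3.3 were used.

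The members, 17 gene lists, alternatives and motifs were chosen with earlier results of these data known. Named genes are the members, list members with the largest folds (up to 4, or all of lists of up to 5), nearest neighbours and the 5 genes most alike; exceptions are marked in the text, and 1 listed gene is not reported here. Ratios were added after values were seen. Alternatives were other pseudocounts, scalings, filters, thresholds and the main isoform.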

Additional observations from a re-analysis of the deposited data

How the results depend on the processing

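No paired analysis was possible because each time has 1 library and nothing links libraries across times; for the same reason no library could be left out. Of 54 values of the 9 member folds under 6 other settings, 42 stayed within the combined bounds of the main value, 12 did not, 1 changed sign and none passed 2-fold. Each member has 1 isoform, so the main-isoform values equal the main values by construction. Other pseudocounts could hardly move genes at these levels. The 42 are therefore in part fixed in advance. The 12 all came from bringing the libraries to the same sum or the same protein-coding sum, which lowers the 4 h library: on these scales the 4 h over 0 h folds were 0.17 and 0.25 for Amh, -0.68 and -0.59 for Amhr2 and -0.069 and 0.014 for Kitl, and the 12 h over 4 h folds were 0.60 and 0.49, 0.85 and 0.74, and -0.0088 and -0.12. Every fold that uses the 4 h library left its bounds on both of these scales. Each 12 h over 0 h fold stayed within its bounds under all 6. The number of genes past 2-fold, 2287 at 4 h over 0 h, 743 at 12 h over 0 h and 1682 at 12 h over 4 h, became 1126, 310 and 772 with a pseudocount of 5 FPKM. With a threshold of 1.5-fold it was 5003, 2017 and 4261, and with 4-fold 594, 172 and 397. A pseudocount of 0.1 FPKM gave 1253 at 12 h over 0 h. The member values rest on an estimated 1437 to 6859 fragments each. The deposited bounds still gave Kitl a 12 h over 0 h fold of -0.36 to 0.04, so error within a library is not small beside its folds. The spread between mice was not measured.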
